A study of Mus musculus with 50 samples.

Results

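The comparison described here is that of colon from TNBS mice given A1007 at 10 mpk (10 libraries) with colon from TNBS mice given vehicle (10 libraries), 20 of the 50 libraries of the series, over every gene that passed an expression filter. TNBS, trinitrobenzene sulfonic acid, is a hapten that provokes colitis in mice, and A1007 is described by the submitters as an oral agonist of the aryl hydrocarbon receptor (AhR). All mice are labelled BALBC, and the unit mpk is printed as the labels give it. Both groups received TNBS, and the difference between them that the labels give is A1007 at 10 mpk against vehicle. The other libraries, 10 sham mice and 10 each at 30 and 90 mpk, serve below only as levels set beside these. The labels give colon as the tissue, narrowed to the distal part in the series' design text, and place all libraries in 1 batch. They give no time of collection, and they number the libraries without saying more of the animals, so that p-values measure the spread between these libraries.

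AhR is a ligand-activated transcription factor that partners with ARNT and induces enzymes of foreign-compound metabolism, its own repressor AHRR and TIPARP, and it is known in the gut for its part in barrier and immune homeostasis. ARNT belongs to the same bHLH-PAS protein family as BMAL1 (gene Arntl), CLOCK and NPAS2, the activators of the circadian clock. In the clock, BMAL1 with CLOCK or NPAS2 binds E-boxes and drives the Per, Cry and Rev-erb (Nr1d1, Nr1d2) repressors and the PAR bZIP output factors Dbp, Tef and Hlf, and REV-ERB proteins in turn repress Arntl and Npas2. The activators and the outputs therefore cycle in opposite phase. Immediate early genes such as Jun, Fosb and Atf3 are switched on within minutes by growth factors, stress and handling, and heat shock chaperones by unfolded protein.

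Library totals ran from 14497205 to 19149227 counts at 10 mpk and from 15324404 to 18916591 counts in vehicle mice. Markers of colon were present: over the 20 libraries Car1 ranged from 530 to 6041 FPKM (fragments scaled to exon length and library size), Muc2 from 352 to 1352 FPKM, and the distal Hox gene Hoxb13 from 3.96 to 103 FPKM. The low end of Hoxb13 came from 10 mpk mice 3 and 8, whose summed level of 6 distal Hox genes was 55.4 and 42.4 CPM (counts scaled to library size) against 218 to 488 CPM in the other 8 mice of that group and 100 to 278 CPM in vehicle mice. Other libraries stood apart as well. The 10 mpk mouse 9 had 20195 CPM from 9 genes of the mitochondrial genome against 57942 to 97983 CPM in the other mice of its group. The 10 mpk mouse 6 had an Xist level of 0.907 CPM against at least 164 CPM in each other mouse of both groups. The labels give no sex, and whether this library's label matches its animal was not tested. The MHC class II list, the mast cell and eosinophil list, Cd79a, Retnla and Cma2, in which mouse 6 was the highest of its group, are therefore given without it as well. Mouse 6 was also highest in the summed monocyte and macrophage list and lymphocyte-attracting chemokine list. For these, ranges with 1 mouse left out are given. Vehicle mouse 6 held 69806 CPM of pancreatic acinar transcripts. Mice differed far more within these groups than within the others: the common biological coefficient of variation was 29.8% at 10 mpk and 32.9% in vehicle mice, against 18.5% at 30 mpk, 15.9% at 90 mpk and 14.9% in sham mice.

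Of 16810 genes tested, 12 passed an adjusted p under 0.05 (edgeR's quasi-likelihood test with Benjamini-Hochberg adjustment over all genes, on these 20 mice), which is 0.0714% of the genes tested. Of these, 8 rose at 10 mpk, namely Otud1, Jun, Hlf, Gm26532, Klf11, Dnajb1, Bhlhe41 and Ephx1 (0.0476%), and 4 fell, namely Arntl, Npas2, Leo1 and Arg2 (0.0238%). At an unadjusted p under 0.05 there were 2548 genes (15.2%), 1271 higher (7.56%) and 1277 lower (7.6%). Whatever the p, 8212 genes were higher (48.9%) and 8598 lower (51.1%). In 3 genes every 10 mpk mouse lay below every vehicle mouse (0.0178%), Npas2, Arg2 and Fads3, and in no gene did every 10 mpk mouse lie above.

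The count of called genes rested on single libraries. Leaving out 10 mpk mouse 5, which had the highest summed neutrophil level of its group, gave 402 called genes (2.38% of those tested), 208 higher and 194 lower, leaving out vehicle mouse 1 gave 79, and leaving out 10 mpk mouse 10 gave 20. Leaving out any other single mouse gave 2 to 6. A fit on all 40 TNBS mice, which applies the smaller spread of the 30 and 90 mpk mice to this comparison, called 1042 of 17623 genes (5.91%), 501 of them higher (2.84%) and 541 lower (3.07%). The same 40 mice with a weight for each group's own spread (limma voom, an alternative chosen after the data were seen) gave 22. The exact two-sided permutation test of rank sums called 0 genes, with 2321 at an unadjusted p under 0.05 and a smallest adjusted p of 0.0662. Its p cannot go below a floor set by the 184756 splits of these mice. At that floor a gene without any overlap could not pass on its own over 16810 genes, so the 0 does not speak against single genes. Arntl and Npas2 passed in 35 of 36 alternatives, all but the rank sum test, and in each of the 20 fits that left out 1 mouse. Otud1 passed in 31 of 36 and Jun in 22, and the other 8 genes in 11 to 16.

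**Figure D1:**
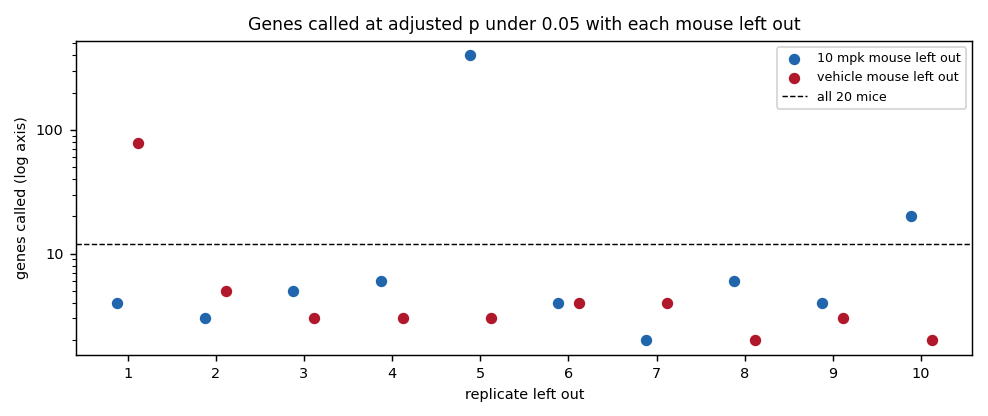
Number of genes called at an adjusted p under 0.05 (edgeR, log axis) when the mouse of the replicate number on the x axis was left out, blue for 10 mpk and red for vehicle mice, with the count from all 20 mice as a dashed line at 12. Without 10 mpk mouse 5 the count was 402 and without vehicle mouse 1 it was 79.

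Among the called genes, Arntl and Npas2 had the smallest adjusted p-values and belong to the activating arm of the clock. Bhlhe41, which encodes the clock repressor DEC2, and Hlf, an output factor, belong to the opposing arm. Because E-boxes are the elements that BMAL1 complexes bind, the 250 bases upstream of the annotated start were searched for CACGTG, which reads the same on both strands, in RefSeq sequences of build GRCm38.p6 (the deposited coordinates are on GRCm39). Of 32851 such windows, 6.02% held the motif. Here and for the motifs below, a gene was counted if any of its windows held the motif. Counts of genes and shares of single windows are therefore not like for like. It was present in 3 of the 10 called genes with a window, Otud1, Klf11 and Bhlhe41, and in 4 of 10 genes of the repressing and output arm, Bhlhe41, Ciart, Per1 and Tef. Of 5 genes of the activating arm with a window, it was present in Cry1. The same windows were searched on both strands for 4 other motifs. The xenobiotic response element that AhR binds (XRE, TNGCGTG), held by 4.1% of all windows, was in Hlf among the called genes, in 3 of 10 genes of the repressing and output arm (Hlf, Nr1d1 and Tef) and in 1 of 7 AhR targets, Ahrr. A heat shock element (HSE, GAANNTTC; 6.69% of all windows) was in 5 of 8 heat shock genes, Hspa1a, Hspa1b, Hspb1, Hspd1 and Hspe1, and in Jun among the called genes. A cyclic AMP response element (CRE, TGACGTCA; 1.55%) was in Hlf, and the D-box (TTANGTAA; 2.06%) in no called gene and in Per3 of the repressing arm. The windows of the 3 called genes that held an E-box are printed with that of Ciart, a clock repressor chosen here for its 3 copies, with the E-box CACGTG in capitals.

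Otud1 (GRCm38.p6, chr2:19657481-19657730, plus strand): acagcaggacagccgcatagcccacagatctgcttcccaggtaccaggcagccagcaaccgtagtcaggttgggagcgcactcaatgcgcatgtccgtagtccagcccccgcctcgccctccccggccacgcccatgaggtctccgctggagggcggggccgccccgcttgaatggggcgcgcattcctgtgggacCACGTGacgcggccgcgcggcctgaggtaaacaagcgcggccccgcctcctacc
Klf11 (GRCm38.p6, chr12:24651121-24651370, plus strand): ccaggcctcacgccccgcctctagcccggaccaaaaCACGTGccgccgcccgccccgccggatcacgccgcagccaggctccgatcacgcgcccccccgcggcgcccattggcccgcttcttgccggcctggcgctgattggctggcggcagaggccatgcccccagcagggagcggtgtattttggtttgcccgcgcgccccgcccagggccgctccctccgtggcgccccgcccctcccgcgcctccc
Bhlhe41 (GRCm38.p6, chr6:145865421-145865670, minus strand): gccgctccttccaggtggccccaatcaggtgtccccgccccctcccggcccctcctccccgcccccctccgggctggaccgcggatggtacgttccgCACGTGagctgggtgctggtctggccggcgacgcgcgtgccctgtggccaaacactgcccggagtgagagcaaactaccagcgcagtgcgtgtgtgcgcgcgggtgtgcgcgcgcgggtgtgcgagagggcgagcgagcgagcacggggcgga
Ciart (GRCm38.p6, chr3:95882229-95882478, minus strand): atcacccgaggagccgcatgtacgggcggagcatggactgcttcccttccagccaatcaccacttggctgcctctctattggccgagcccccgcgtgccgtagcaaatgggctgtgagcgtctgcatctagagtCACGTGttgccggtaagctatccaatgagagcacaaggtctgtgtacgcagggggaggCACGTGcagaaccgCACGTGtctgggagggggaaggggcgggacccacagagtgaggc

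The E-box began 54 bases before the start in Otud1, 214 bases in Klf11 and 153 bases in Bhlhe41, and at 116, 58 and 44 bases in Ciart. A match of these letters is a description of the sequence, and no binding was measured in this series.

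Arntl (chr7:112806672-112913333 on GRCm39, plus strand), which encodes the obligate clock activator BMAL1, ran from 0.82 to 2.19 FPKM at 10 mpk, with a median of 1.17, and from 2.0 to 5.86 FPKM in vehicle mice, with a median of 3.86. At 10 mpk, 9 of 10 mice lay below every vehicle mouse, and the exception was mouse 5, which at 2.19 FPKM lay above the lowest vehicle mouse. The gene fell by 1.77 on the log2 scale (SE 0.19, 95% interval -2.16 to -1.38, adjusted p = 7.26e-05). Npas2 (chr1:39232812-39402317, plus strand), the paralog of CLOCK, ran from 0.83 to 2.31 FPKM at 10 mpk (median 1.33) and from 2.32 to 4.77 FPKM in vehicle mice (median 3.98). The groups did not overlap, although the nearest values, from 10 mpk mouse 5 and vehicle mouse 8, nearly met. Npas2 fell by 1.46 on the log2 scale (SE 0.16, 95% interval -1.80 to -1.11, adjusted p = 0.000104). Sham mice, which received no TNBS, had medians of 1.1 FPKM for Arntl and 1.4 FPKM for Npas2, and the medians at 30 and 90 mpk were 0.955 and 0.955 FPKM for Arntl and 0.94 and 0.95 FPKM for Npas2. In both genes the vehicle median was the highest of the 5 groups.

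Nfil3, Clock and Cry1, of the same arm, were also lower at 10 mpk, without passing the test over all genes. Nfil3, a repressor of D-box genes that is also induced by cytokines, had a median of 4.06 FPKM at 10 mpk and 10.2 FPKM in vehicle mice (-1.39 on the log2 scale, SE 0.39, adjusted p = 0.128), and its highest value at 10 mpk, 16.1 FPKM, was that of mouse 5. Clock itself had medians of 6.62 and 8.66 FPKM (-0.37, adjusted p = 0.145). Cry1, a repressor that peaks late, had 6.83 and 8.74 FPKM (-0.31, adjusted p = 0.303). Over the list, 5 of 6 tested genes were lower, and 2 were called lower (0.0238% of all genes) and none higher. At an unadjusted p under 0.05, 5 were lower, against 7.6% of all genes. The median log2 fold change of the list was -0.88, against -0.01 over all genes tested.

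Hlf (chr11:90227362-90281721, minus strand) ran from 1.11 to 5.58 FPKM at 10 mpk (median 3.75) and from 0.24 to 2.57 FPKM in vehicle mice (median 1.06). It rose by 1.66 (log2, SE 0.3, adjusted p = 0.0463), and 9 of 10 mice lay above every vehicle mouse, mouse 5 being the exception. Bhlhe41 (chr6:145803969-145811284, minus strand) ran from 0.38 to 2.26 FPKM (median 1.4) against 0.29 to 0.95 FPKM (median 0.595) in vehicle mice, and rose by 1.22 (SE 0.23, adjusted p = 0.0463). Again mouse 5, at 0.38 FPKM, was the one 10 mpk mouse within the vehicle range.

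The rest of the repressing and output arm lay on the same side of 0. Dbp, the output factor with the widest daily swing, ran from 5.3 to 26.7 FPKM at 10 mpk (median 20.2) and from 0.41 to 10.6 FPKM in vehicle mice (median 3.64), with a log2 fold change of 2.15 (SE 0.49, adjusted p = 0.0878). At 10 mpk, 9 of 10 mice lay above the vehicle range, and mouse 5 at 5.3 FPKM within it. Tef, its relative, had medians of 17.8 and 6.67 FPKM (1.41, SE 0.31, adjusted p = 0.0741). Among the repressors, Nr1d1 had medians of 22.7 against 9.34 FPKM (1.21, adjusted p = 0.0863) and Nr1d2 37.1 against 15.0 FPKM (1.21, adjusted p = 0.0863). Per2 and Per3 had log2 fold changes of 0.87 (adjusted p = 0.111) and 1.3 (adjusted p = 0.106), and Ciart of 1.66 (adjusted p = 0.0786). Per1, which also responds acutely to stress hormones, had medians of 5.23 and 4.11 FPKM and a log2 fold change of 0.25 (SE 0.26, adjusted p = 0.673).

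All 11 tested genes of the repressing and output arm were higher at 10 mpk, with a median log2 fold change of 1.22. Of these, 10 had an unadjusted p under 0.05 (against 7.56% of all genes, higher) and 2 were called (against 0.0476%). The number called was 10 without 10 mpk mouse 5, where 208 of 16909 genes were called higher, and 7 without vehicle mouse 1 (62 of 16916 genes). It was 10 in the 40-mouse fit, which called 2.84% of all genes higher. The number stayed at 2 without 10 mpk mouse 10 (15 of 16907 genes called higher). It was 0 in the 17 fits that left out 1 of the other mice and in the fit without the 10 mpk mice 3 and 8 of low Hox level. In each of the 20 fits that left out 1 mouse all 11 genes were higher and 10 had an unadjusted p under 0.05, with medians from 1.16 to 1.37. The summed level of the arm was 377.4 to 811.7 CPM at 10 mpk (median 685.1), 119.9 to 496.3 CPM in vehicle mice (median 289.2) and 743 to 944 CPM in sham mice (median 897). The lowest of the 10 mpk mice was mouse 5 and the lowest vehicle mouse was mouse 9, which also had the highest summed neutrophil level of the 20 mice. With no collection time in the labels, a difference in the hour at which the groups were sampled and a difference in clock gene level at the same hour cannot be told apart.

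**Figure D2:**
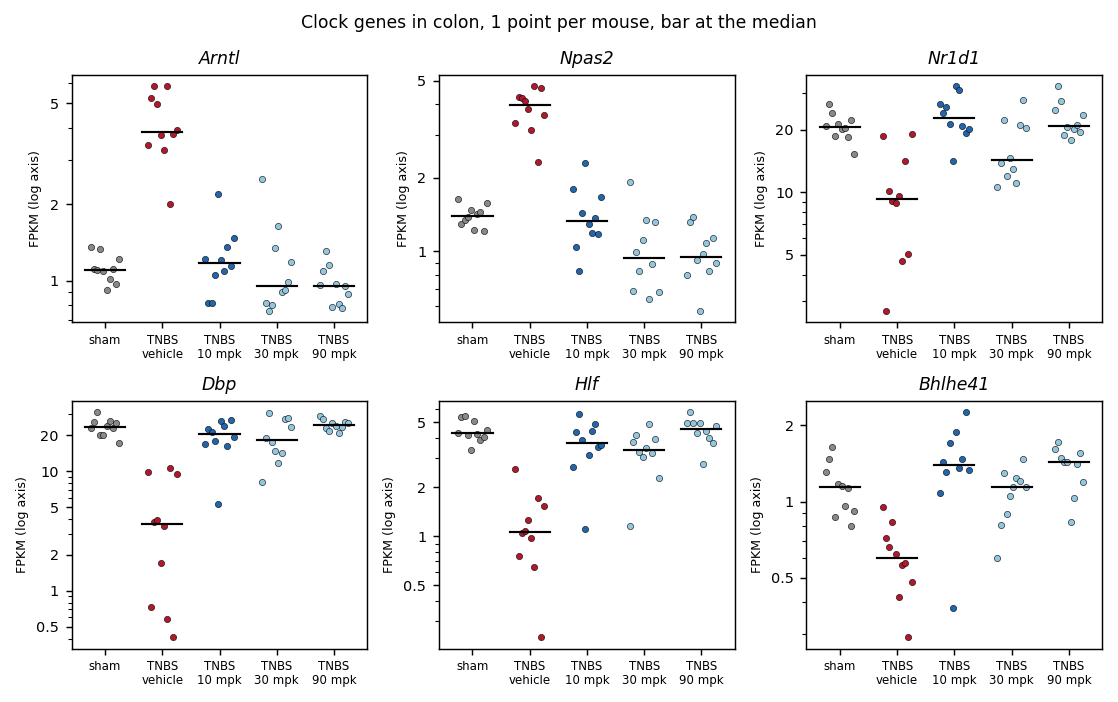
FPKM on a log axis of 6 clock genes in colon of each mouse of the 5 groups, with a bar at each group's median. Arntl and Npas2 are highest in TNBS vehicle mice, at medians of 3.86 and 3.98 FPKM, and Dbp and Hlf lowest there, at 3.64 and 1.06 FPKM. The 10 mpk point nearest the vehicle mice is mouse 5 in Arntl, Npas2, Dbp, Hlf and Bhlhe41.

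Jun (chr4:94937271-94940459, minus strand), a subunit of the AP-1 factor, was the one immediate early gene that was called. It ran from 40.8 to 160 FPKM at 10 mpk (median 77.7) and from 28.7 to 57.6 FPKM in vehicle mice (median 38.6), and rose by 1.19 (log2, SE 0.2, adjusted p = 0.0367). At 10 mpk, 8 of 10 mice lay above every vehicle mouse, with mice 4 and 8 within the vehicle range. Junos, an antisense gene, overlaps Jun, and reads of the pair cannot be told apart without a strand setting, which is not given in the sources used here. Fosb, another AP-1 subunit, had the highest fitted log2 fold change of all genes with a mean of at least 2 FPKM in either group, 2.99 (SE 0.7), but was not called (adjusted p = 0.0929). Its values at 10 mpk were 35.0, 36.4, 43.6, 19.1 and 40.4 FPKM in mice 1, 2, 5, 6 and 7 and 2.54 to 6.54 FPKM in the other mice, against 0.51 to 10.4 FPKM in vehicle mice. Atf3, a stress-induced factor of the same family, ran from 6.09 to 119 FPKM at 10 mpk (median 34) and from 4.63 to 15.7 FPKM in vehicle mice (median 9.24), at 2.26 (SE 0.53, adjusted p = 0.0909). The high values were those of the same 5 mice, 49 to 119 FPKM, with 19.1 FPKM in mouse 10 and 6.09 to 10.9 FPKM in the other 4. Btg2, an early antiproliferative gene, had medians of 68.6 and 42.8 FPKM (0.67, SE 0.15, adjusted p = 0.0863).

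Of 21 tested immediate early factors, 19 were higher at 10 mpk, and the median log2 fold change was 0.51. At an unadjusted p under 0.05, 9 were higher and 1 lower, against 7.56% and 7.6% of all genes. In the 40-mouse fit, which called 2.84% of all genes higher, 7 were called higher. Without 10 mpk mouse 5, where 208 of 16909 genes were called higher, the number was 4. None was called in 11 of the 20 fits that left out 1 mouse. Medians of Jun were 38.5 FPKM in sham, 117 at 30 mpk and 52.7 at 90 mpk, and those of Fosb were 2.11, 28.1 and 3.17 FPKM. For Fosb and Atf3, 10 mpk mouse 5 lay among the highest of its group, whereas for Dbp and Hlf it was the lowest.

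Gm26532 (chr8:84935549-84936238, plus strand), a predicted gene with 690 exonic bases that contains Mir24-2, rose by 1.29 (log2, SE 0.24, adjusted p = 0.0463). It ran from 3.04 to 18.9 FPKM at 10 mpk (median 10.6) and from 3.24 to 4.83 FPKM in vehicle mice (median 3.9). At 10 mpk, 9 mice lay above the vehicle range and mouse 8 below it. As with Jun, the highest value was that of mouse 7, and the median at 30 mpk, 13.7 FPKM, was above those of the other 4 groups.

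Dnajb1 (chr8:84334822-84339282, plus strand), a co-chaperone of HSP70, ran from 16.7 to 30.2 FPKM at 10 mpk (median 23.2) and from 13.5 to 20.6 FPKM in vehicle mice (median 14.5), and rose by 0.57 (log2, SE 0.11, adjusted p = 0.0463). At 10 mpk, 7 of 10 mice lay above the vehicle range. The inducible HSP70 genes Hspa1a and Hspa1b had larger fold changes and wider spread. Hspa1a had medians of 14.8 and 4.08 FPKM (1.53, SE 0.31, adjusted p = 0.0568) and Hspa1b 39.2 and 12.2 FPKM (1.36, SE 0.28, adjusted p = 0.063). The pair is nearly identical in sequence, so the split of reads between them is uncertain. In sham mice their medians were 15.6 and 38.5 FPKM, and that of Dnajb1 was 22.3 FPKM. Of 10 tested heat shock genes, 8 were higher at 10 mpk, with a median log2 fold change of 0.36. At an unadjusted p under 0.05, 5 were higher, against 7.56% of all genes. Called higher were 5 without 10 mpk mouse 5, a fit that called 208 of 16909 genes higher, and 3 without vehicle mouse 1 (62 of 16916 genes). The number was 0 in 14 of the 20 fits that left out 1 mouse, among them those without 10 mpk mouse 6 or 9 or vehicle mouse 5, 6 or 9, and without the 10 mpk mice 3 and 8.

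**Figure D3:**
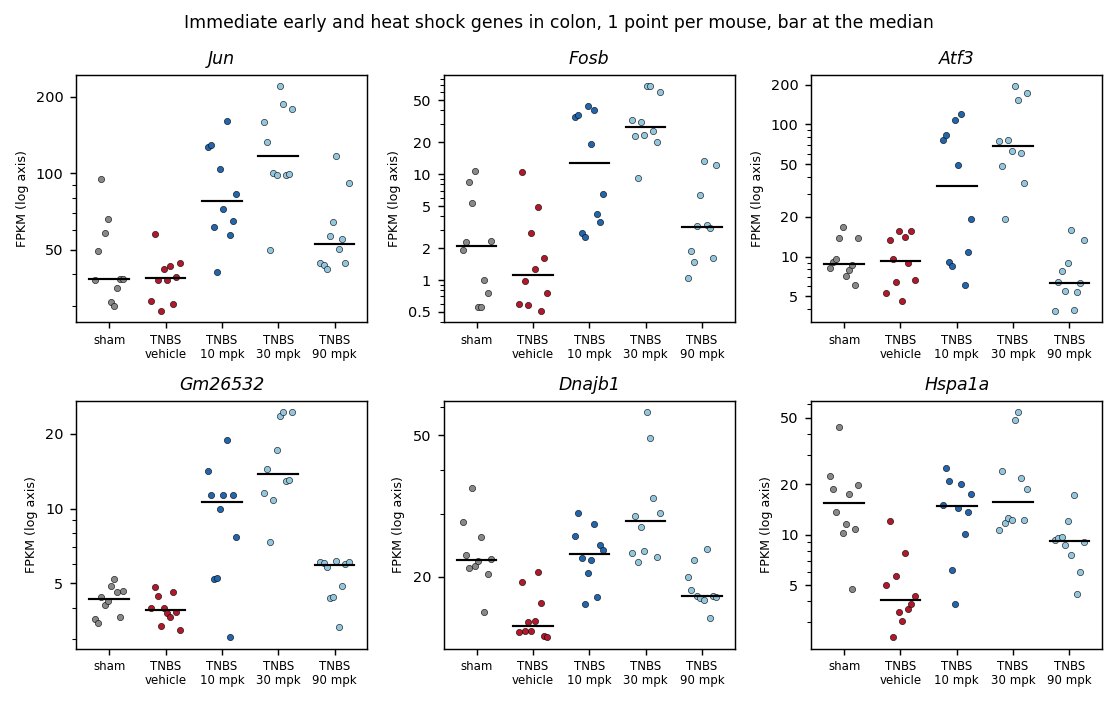
FPKM on a log axis of 3 immediate early genes, Gm26532 and 2 heat shock genes in colon of each mouse of the 5 groups, with a bar at each group's median. Fosb and Atf3 at 10 mpk separate into high and low mice, and Jun, at a median of 77.7 FPKM, lies mostly above the vehicle mice.

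Otud1 (chr2:19662563-19665394, plus strand), a deubiquitinase that acts in innate immune signalling, ran from 2.9 to 5.34 FPKM at 10 mpk (median 4.01) and from 2.03 to 3.3 FPKM in vehicle mice (median 2.34). It rose by 0.75 (log2, SE 0.12, adjusted p = 0.0168), and 9 of 10 mice lay above the vehicle range. Klf11 (chr12:24701273-24712788, plus strand), a Krüppel-like factor linked to TGF-beta signalling, ran from 4.29 to 8.29 FPKM (median 5.79) against 2.64 to 5.04 FPKM (median 3.51), and rose by 0.69 (SE 0.13, adjusted p = 0.0463). Ephx1 (chr1:180803775-180848469, minus strand), the microsomal epoxide hydrolase of xenobiotic metabolism, ran from 10.7 to 25.4 FPKM (median 20.4) against 8.06 to 15.1 FPKM (median 12.4), and rose by 0.72 (SE 0.14, adjusted p = 0.0498). Its sham median was 20.8 FPKM, and the low value at 10 mpk was that of mouse 5.

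Arg2 (chr12:79177551-79203075, plus strand), the mitochondrial arginase, ran from 7.69 to 14.7 FPKM at 10 mpk (median 10.1) and from 14.8 to 41.9 FPKM in vehicle mice (median 17.8). The groups did not overlap, and the 2 highest vehicle values were those of mice 9 and 5. Arg2 fell by 1.16 (log2, SE 0.22, adjusted p = 0.0498), with a sham median of 8.32 FPKM. Leo1 (chr9:75348806-75373714, plus strand), a subunit of the PAF1 elongation complex, ran from 5.47 to 7.99 FPKM (median 6.19) against 6.61 to 10.8 FPKM (median 8.38), and fell by 0.44 (SE 0.08, adjusted p = 0.0463). Fads3, a member of the fatty acid desaturase family, was the other gene without overlap, at 3.26 to 6.89 FPKM against 7.11 to 9.07 FPKM, and was not called (-0.49, SE 0.11, adjusted p = 0.0639). Arg2 overlaps Vti1b, and Npas2, Arntl, Bhlhe41 and Ephx1 each overlap at least 1 predicted gene, whose reads could be shared.

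No AhR target was called with all 20 mice. The prototypic targets Cyp1a1 and Cyp1a2 did not reach the filter, with at most 27 and 2 counts in a 10 mpk library and 31 and 1 in a vehicle library, and Ugt1a6b did not either. Of the 6 targets tested, 5 were lower and 1 higher, with a median log2 fold change of -0.06. This direction rested on single mice: 3 were higher and 3 lower without 10 mpk mouse 5, 9 or 10 or vehicle mouse 1, 3 or 10, and 4 were higher without 10 mpk mouse 1. Over the 20 fits that left out 1 mouse the median ran from -0.22 to 0.02. A single target was called lower without 10 mpk mouse 5 (194 of 16909 genes called lower), without vehicle mouse 1 (17 of 16916) and in the 40-mouse fit (3.07%). Cyp1b1, a cytochrome P450 that AhR induces and that fibroblasts also express, ran from 0.13 to 0.52 FPKM at 10 mpk (median 0.345) and from 0.16 to 14.5 FPKM in vehicle mice (median 0.715), at -3.35 (log2, SE 0.78, adjusted p = 0.0909). Vehicle mice 6, 5 and 9, at 14.5, 8.69 and 4.93 FPKM, carried that fitted value, and the other 7 lay between 0.16 and 1.45 FPKM. Tiparp, an AhR-induced ADP-ribosyltransferase that limits AhR activity, had medians of 6.41 and 6.55 FPKM (-0.40, SE 0.19, adjusted p = 0.334). Aldh3a1, an aldehyde dehydrogenase, had 0.435 and 0.315 FPKM (0.59, SE 0.40, adjusted p = 0.495). Nqo1, a quinone reductase shared with the NRF2 pathway, had medians of 16.8 and 16.1 FPKM, and the 95% interval of its log2 difference ran from -0.48 to 0.44. Ahrr, the AhR repressor, had 0.31 and 0.34 FPKM, with an interval from -0.54 to 0.52, and Ugt1a6a, a glucuronosyltransferase, 0.645 and 1.44 FPKM, with an interval from -1.01 to 0.79.

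The receptor itself, Ahr, ran from 4.47 to 7.05 FPKM at 10 mpk (median 5.44) and from 4.6 to 6.91 FPKM in vehicle mice (median 5.92), and the log2 difference of -0.02 had a 95% interval from -0.19 to 0.15. Its partner Arnt had medians of 7.12 and 7.63 FPKM, with an interval of the log2 difference from -0.35 to 0.07, and Arnt2, its paralog, 0.425 and 0.43 FPKM, with an interval from -0.38 to 0.56. Of the cytosolic chaperone complex that holds AhR, Hsp90ab1 had medians of 641 and 523 FPKM (0.32, SE 0.10, adjusted p = 0.178). Ptges3, the p23 co-chaperone, had 71.8 and 63.3 FPKM (interval -0.24 to 0.30). The highest values of both were those of 10 mpk mouse 9, the mouse low in mitochondrial transcripts.

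**Figure D4:**
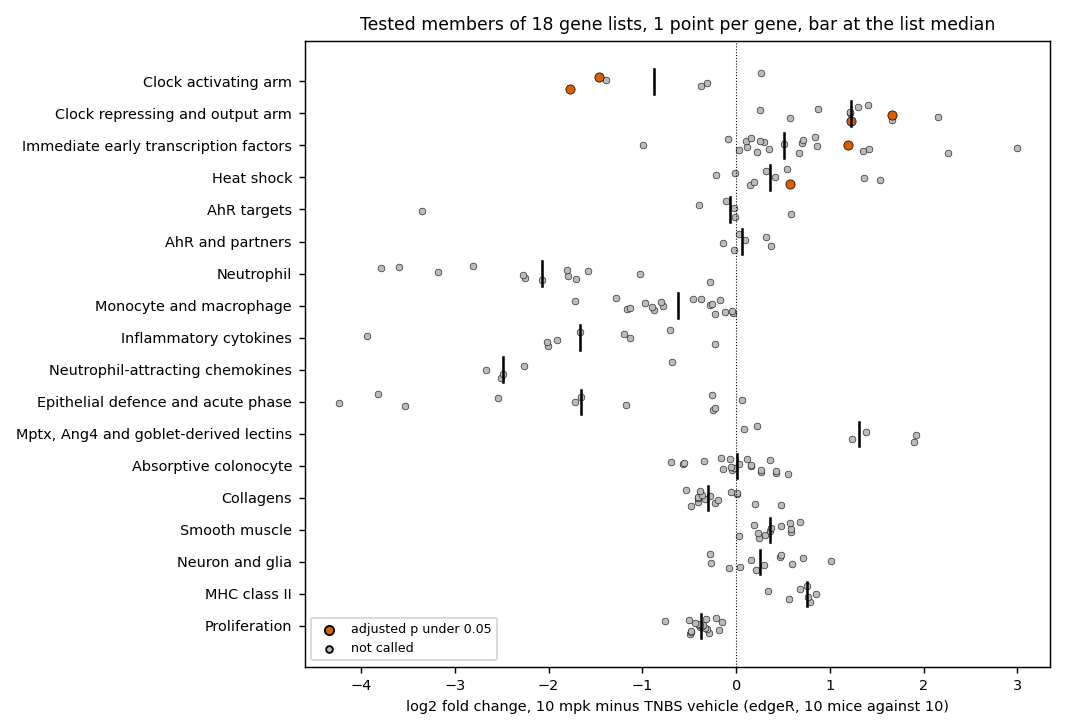
Log2 fold change at 10 mpk against vehicle (x axis, edgeR on 20 mice) of each tested member of 18 gene lists (rows), orange where the adjusted p was under 0.05, with a bar at each list's median. Among the plotted lists, neutrophil-attracting chemokines and neutrophil genes have the lowest medians, -2.49 and -2.07, with no member called, and the called genes lie in the clock, immediate early and heat shock lists.

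Genes of inflammation were lower at 10 mpk in fitted value, with no list member called. Of 13 tested neutrophil genes all were lower, with a median log2 fold change of -2.07. Of these, 11 had an unadjusted p under 0.05, against 7.6% of all genes in that direction. Without vehicle mouse 9 the median was -1.51 and 4 genes had such a p, and without vehicle mouse 5 the number was 7. Without 10 mpk mouse 5, where 194 of 16909 genes were called lower, 2 neutrophil genes were called lower. The summed level of the neutrophil genes was 164 to 954 CPM at 10 mpk (median 261), 227 to 5515 CPM in vehicle mice (median 518) and 177 to 269 CPM in sham mice (median 215). The vehicle mice above all 10 mpk mice were mice 9, 5 and 8, at 5515, 3211 and 1054 CPM. In whole tissue, fewer neutrophils and less RNA per neutrophil cannot be told apart.

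The groups overlapped in single genes too. S100a9, a calprotectin subunit, ran from 1.58 to 348 FPKM at 10 mpk (median 7.75) and from 6.58 to 3904 FPKM in vehicle mice (median 189), at -3.59 (SE 1.31, adjusted p = 0.219). Mmp9, a gelatinase of neutrophils and macrophages, had medians of 4.27 and 11.4 FPKM (-1.58, SE 0.42, adjusted p = 0.124), and every 10 mpk mouse lay below the vehicle median. Trem1, an amplifying receptor of myeloid cells, had 0.215 and 1.59 FPKM (-2.81, SE 0.91, adjusted p = 0.177), and Csf3r, the G-CSF receptor, 1.57 and 6.03 FPKM (-1.71, SE 0.56, adjusted p = 0.18).

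All 18 monocyte and macrophage genes were lower, 12 at an unadjusted p under 0.05 (against 7.6% of all genes), with a median of -0.62. With 1 mouse left out, 16 to 18 were lower, and the median ran from -0.69 to -0.47. Ccr2, the receptor that brings monocytes into tissue, ran from 2.25 to 4.33 FPKM at 10 mpk (median 3.24) and from 2.67 to 10.3 FPKM in vehicle mice (median 4.64), at -0.88 (SE 0.22, adjusted p = 0.105). Fcgr1, the high-affinity IgG receptor, and Msr1, a scavenger receptor, were at -0.97 (SE 0.26, adjusted p = 0.12) and -1.28 (SE 0.35, adjusted p = 0.127). For these 3 genes every 10 mpk mouse lay below the vehicle median. In the 40-mouse fit, which called 3.07% of all genes lower, 8 of the 18 were called lower. Without 10 mpk mouse 5, a fit that called 194 of 16909 genes lower, the number was 4.

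Of 16 listed inflammatory cytokines 9 passed the filter, and all 9 were lower, with a median of -1.67. Of these, 5 had an unadjusted p under 0.05, against 7.6% of all genes in that direction. The number with such a p was 2 without vehicle mouse 5 (median -1.26), 3 without vehicle mouse 9 or 10 mpk mouse 2, 3, 4, 6, 7, 9 or 10, and at most 7. Il6 had medians of 0.225 FPKM at 10 mpk and 1.08 FPKM in vehicle mice (-3.94, SE 1.05, adjusted p = 0.122), Lif, a cytokine of the same family, 0.505 and 1.17 FPKM (-1.20, SE 0.37, adjusted p = 0.162), and the alarmin Il33 6.56 and 10.9 FPKM (-1.13, SE 0.45, adjusted p = 0.246). The monocyte chemoattractant Ccl2 ran from 0.95 to 5.95 FPKM at 10 mpk (median 3.77) and from 1.7 to 64.3 FPKM in vehicle mice (median 9.72), at -2.37 (SE 0.6, adjusted p = 0.106), and Ccl7, its neighbour in the chemokine cluster, was at -2.14 (SE 0.57, adjusted p = 0.122). Of the 9 monocyte-attracting chemokines tested, 7 were lower and 2 higher, with a median of -1.01. At an unadjusted p under 0.05, 5 were lower, against 7.6% of all genes. The summed level of this list had medians of 562.4 CPM at 10 mpk and 601.6 CPM in vehicle mice. Of the CXC chemokines that attract neutrophils, all 5 tested were lower, with a median of -2.49 (-3.30 to -1.85 with 1 mouse left out), among them Cxcl1 at -2.51 (adjusted p = 0.217) and Cxcl5 at -2.26 (adjusted p = 0.29). At 10 mpk Cxcl5 reached 57 FPKM in mouse 5, against a median of 2.05 FPKM.

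Lymphoid chemokines did not share one direction. Cxcl13, which draws B cells into follicles, had medians of 41 and 51.4 FPKM (-1.36, SE 0.46, adjusted p = 0.198), and Ccl21a, made by lymphatic vessels and lymphoid stroma, 132 and 84 FPKM (0.63, SE 0.25, adjusted p = 0.241). Without 10 mpk mouse 6, Ccl21a was at 0.43 (adjusted p = 0.427) and Cxcl13 at -1.45 (adjusted p = 0.266). Of the 13 tested, 6 were higher and 7 lower, with a median of -0.01 (-0.09 to 0.06 with 1 mouse left out).

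**Figure D5:**
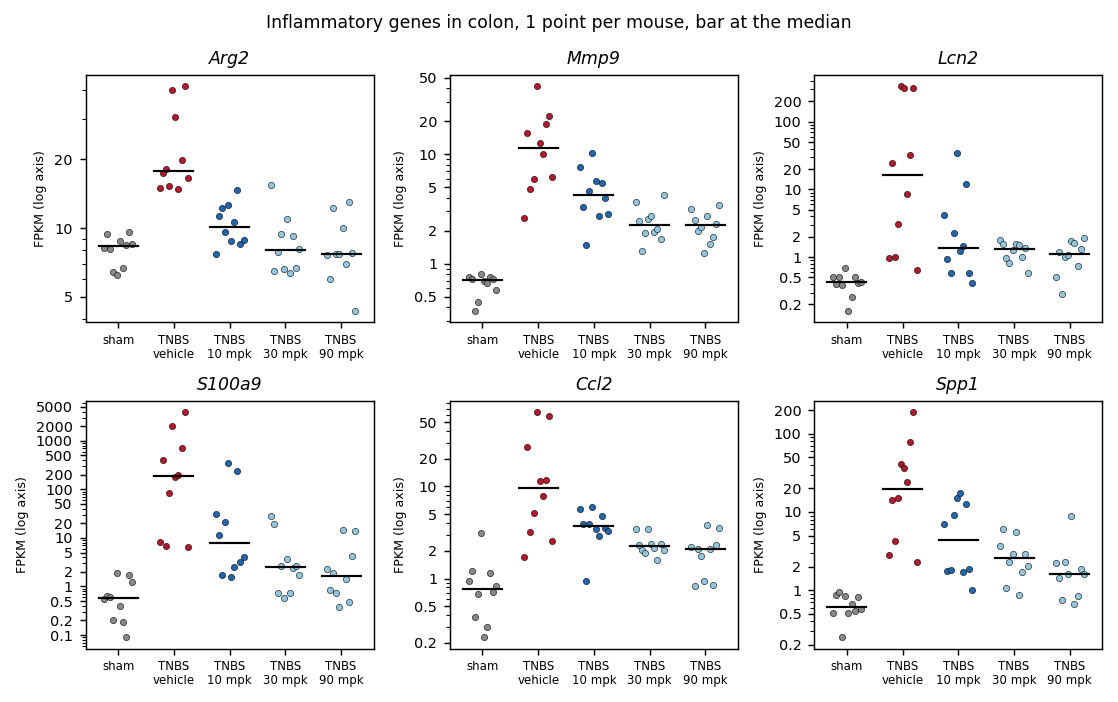
FPKM on a log axis of Arg2, which was called, and of 5 inflammatory genes that were not, in colon of each mouse of the 5 groups, with a bar at each group's median. Lcn2 spans 0.64 to 340 FPKM in vehicle mice and 0.42 to 34.9 FPKM at 10 mpk, so that the lowest vehicle mice lie among the treated ones.

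Antimicrobial and acute phase genes of the epithelium were lower in 10 of 11 tested members, with a median of -1.65. Of these, 7 were lower at an unadjusted p under 0.05, against 7.6% of all genes. Without vehicle mouse 6 the median was -0.82 and 4 had such a p, and without vehicle mouse 5 the median was -1.07. Lcn2, the siderophore-binding lipocalin used as a marker of gut inflammation, ran from 0.42 to 34.9 FPKM at 10 mpk (median 1.35) and from 0.64 to 340 FPKM in vehicle mice (median 16.4), at -4.24 (SE 1.27, adjusted p = 0.158). Vehicle mice 5, 9 and 6 lay at 340, 320 and 317 FPKM and vehicle mice 1, 3 and 10 at 0.96, 0.99 and 0.64 FPKM, within the range of the treated mice. Saa3, an acute phase protein, had medians of 3.73 and 34.7 FPKM (-3.82, SE 1.19, adjusted p = 0.169), and haptoglobin, Hp, 8.06 and 39.2 FPKM (-3.53, SE 1.04, adjusted p = 0.148).

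The secreted lectins and pentraxins of goblet and deep crypt cells lay on the other side. All 6 tested genes of the Mptx, Ang4 and goblet lectin list were higher at 10 mpk, with a median of 1.31 and none called. Of these, 3 had an unadjusted p under 0.05, against 7.56% of all genes in that direction. Without 10 mpk mouse 9, 5 of 6 were higher, 1 had such a p and the median was 0.90. The number with such a p was also 1 in 13 other fits that left out 1 mouse. Mptx1, a mucosal pentraxin, ran from 211 to 8524 FPKM at 10 mpk (median 1754) and from 43.1 to 2015 FPKM in vehicle mice (median 396), at 1.92 (SE 0.7, adjusted p = 0.219). Mptx2 had medians of 917 and 238 FPKM (1.38, SE 0.65, adjusted p = 0.326), and Ang4, an antimicrobial ribonuclease, 867 and 137 FPKM (1.9, SE 0.9, adjusted p = 0.326). The highest 10 mpk values of all 3 genes were those of mouse 9 and the lowest those of mouse 5. Reads shared between Mptx paralogs make their split uncertain.

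General markers of goblet cells and colonocytes were near 0 on balance. The goblet list had 6 genes higher and 4 lower, with a median of 0.13 (-0.06 without 10 mpk mouse 9), and Zg16, a goblet lectin that binds Gram-positive bacteria, had medians of 1069 FPKM at 10 mpk and 1749 FPKM in vehicle mice (-0.77, SE 0.25, adjusted p = 0.174). The 20 colonocyte genes were split 10 to 10, with a median of 0.01 (-0.10 to 0.10 with 1 mouse left out). Car2, a carbonic anhydrase of surface colonocytes, had medians of 330 and 257 FPKM (0.43, SE 0.18, adjusted p = 0.265), and Slc16a1, a butyrate transporter, 51.8 and 61.1 FPKM (-0.34, SE 0.12, adjusted p = 0.215).

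Among the 13 tight junction genes, 4 were higher and 9 lower, with a median of -0.02, and 7 were higher without 10 mpk mouse 4, 6 or 9. Cldn8, a sealing claudin of the distal colon, came next to the threshold: it ran from 7.35 to 34.3 FPKM at 10 mpk (median 17) and from 23.1 to 62.1 FPKM in vehicle mice (median 37.2), at -1.16 (SE 0.23, adjusted p = 0.05, not under the threshold before rounding). Every 10 mpk mouse lay below the vehicle median, and the sham median was 15.5 FPKM. Cldn23 had medians of 14.3 and 9.86 FPKM (0.48, SE 0.13, adjusted p = 0.112), with 7 of 10 mice above the vehicle range, and Cldn2, which forms cation pores, 31.6 and 46.5 FPKM (-0.47, SE 0.17, adjusted p = 0.21).

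In the list of regenerative epithelium, 2 of 10 genes were higher and 8 lower, with a median of -0.47 (-0.20 without vehicle mouse 9, with 3 higher), and the named members lay on opposite sides of 0. Ereg, an EGF-family growth factor, had medians of 5.11 FPKM at 10 mpk and 15 FPKM in vehicle mice (-1.64, SE 0.5, adjusted p = 0.158), whereas Hbegf, a growth factor of the same family that is also an immediate early gene, had 5.77 and 2.19 FPKM (1.61, SE 0.44, adjusted p = 0.125).

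Collagens were lower in 12 of 16 tested genes, with a median of -0.30 and none called either here or in the 40-mouse fit. At an unadjusted p under 0.05, 2 of the 16 were lower, against 7.6% of all genes. Their summed level was 4505 to 13165 CPM at 10 mpk (median 5247), 5122 to 10952 CPM in vehicle mice (median 6255) and 1382 to 2186 CPM in sham mice (median 1860), so that all mice of both TNBS groups lay above all sham mice. Col4a1 and Col4a2, the main chains of basement membrane collagen, had medians of 70.4 against 96 FPKM and 39.7 against 57 FPKM, each at -0.41 (SE 0.19, adjusted p = 0.303 and 0.301). Col14a1, a fibril-associated collagen, was at 0.48 (SE 0.24, adjusted p = 0.34). The highest collagen sum of the 20 mice was that of 10 mpk mouse 1, without which 9 had an unadjusted p under 0.05 and the median was -0.46. In 12 of the 20 fits that left out 1 mouse no collagen had such a p.

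Fibrosis mediators and matrix genes were lower in 19 of 24, 9 at an unadjusted p under 0.05 (against 7.6% of all genes), with a median of -0.24. Without vehicle mouse 9, 14 were lower and 10 higher, 6 had such a p and the median was -0.10. Spp1, osteopontin, ran from 1.01 to 17.7 FPKM at 10 mpk (median 4.4) and from 2.28 to 189 FPKM in vehicle mice (median 19.7), at -2.66 (SE 0.78, adjusted p = 0.148). Thbs1, thrombospondin 1, was at -1.32 (SE 0.41, adjusted p = 0.169) and Timp1, an inhibitor of metalloproteinases, at -2.53 (SE 0.87, adjusted p = 0.198). At 10 mpk the highest value of both Thbs1 and Timp1 was that of mouse 5.

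The muscle wall and its nerves had higher fitted levels at 10 mpk. All 12 smooth muscle genes were higher, 5 at an unadjusted p under 0.05 (against 7.56% of all genes), with a median of 0.36. At least 11 of 12 were higher in each of the 20 fits that left out 1 mouse. Lmod1, an actin filament nucleator, had medians of 28.2 and 17.2 FPKM (0.58, SE 0.17, adjusted p = 0.136), Smtn, smoothelin, 42.3 and 26 FPKM (0.48, SE 0.15, adjusted p = 0.158), and Myl9, a myosin light chain, 510 and 307 FPKM (0.58, SE 0.18, adjusted p = 0.169). The enteric glial genes included S100b, with medians of 2.73 and 1.17 FPKM (1.01, SE 0.22, adjusted p = 0.0639) and 7 of 10 mice above the vehicle range, and Sox10 at 0.71 (SE 0.19, adjusted p = 0.125). Of 12 neuron and glia genes 9 were higher, with a median of 0.26. At an unadjusted p under 0.05, 5 were higher (3 without 10 mpk mouse 9), against 7.56% of all genes with all 20 mice. The share of muscle wall in each piece of colon is not in the labels, and its part in these values was not tested.

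Antigen presentation genes were higher as well. All 7 MHC class II genes were higher, 5 at an unadjusted p under 0.05 (against 7.56% of all genes), with a median of 0.76. In the 40-mouse fit, which called 2.84% of all genes higher, 4 were called. H2-Eb1 had medians of 78.9 and 46.3 FPKM (0.76, SE 0.26, adjusted p = 0.192), H2-Aa 44.5 and 24 FPKM (0.77, SE 0.26, adjusted p = 0.198) and H2-Ab1 30.4 and 17.8 FPKM (0.85, SE 0.29, adjusted p = 0.198). The highest value of the 3 was that of 10 mpk mouse 6, which also had the highest Cd79a, a subunit of the B cell receptor, at 72 FPKM (group medians 30 and 16.1 FPKM, log2 fold change 0.84, SE 0.38, adjusted p = 0.303). Without that mouse all 7 class II genes were higher, 4 at an unadjusted p under 0.05, with a median of 0.63, and Cd79a was at 0.62 (adjusted p = 0.517). Of 12 B and plasma cell genes 11 were higher, 1 at an unadjusted p under 0.05, a share close to the 7.56% of all genes, with a median of 0.55. Without mouse 6, 10 were higher, none at such a p, with a median of 0.46. Retnla, an alternative activation marker of macrophages, ran from 3.95 to 229 FPKM at 10 mpk (median 27.6) and from 1.49 to 28.4 FPKM in vehicle mice (median 9.6), at 1.93 (SE 0.6, adjusted p = 0.164), and at 1.22 (adjusted p = 0.338) without mouse 6, its highest. Cldn5, a claudin of endothelium, had medians of 8.62 and 5.88 FPKM (0.82, SE 0.21, adjusted p = 0.112), the highest fold change of its list. Of the 14 endothelium genes tested, 9 were higher and 5 lower, with a median of 0.13.

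The genes with the 8 lowest fitted log2 fold changes were genes of the exocrine pancreas, among them Reg2, Pnliprp1, Reg1, Ctrb1, Gp2, Cpb1 and Ctrl, and none was called. Reg2 was fitted at -9.00 (log2, SE 2.15, adjusted p = 0.0962), but its medians were 0.645 FPKM at 10 mpk and 0.42 FPKM in vehicle mice, and the fitted value came from vehicle mice 6, 5, 9 and 2, at 5940, 431, 315 and 146 FPKM. Of 21 acinar genes 10 passed the filter, with a median log2 fold change of -5.02, which was -1.27 without vehicle mouse 6. With limma voom and library weights Pnliprp1, Reg1, Ctrb1, Cpb1 and Ctrl were fitted above 0, and their part in the other differences was not tested.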

How the data were processed

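Colon poly(A) RNA was sequenced by the submitters. The table deposited by the authors holds raw counts for every gene and library and, beside them, FPKM, with coordinates on GRCm39. The submitters' processing notes list cutadapt 1.9.1, HISAT2 2.2.1, HTSeq 0.6.1 and DESeq2. What each tool did, how strand was set and how multi-mapping reads were handled is not given in the sources used here. Here the counts of the 20 mice were fitted with edgeR 4.0.16 (glmQLFit, robust, and glmQLFTest, in R 4.3.3) after TMM scaling and filterByExpr with a count minimum of 10. Genes count as called where the Benjamini-Hochberg adjusted p was below 0.05. Levels are the deposited FPKM. Checked on simulated counts with these library sizes, the fit recovered 46.9% of genes changed 1.5-fold and 78.6% of those changed 2-fold, with 8 false calls among 16461 unchanged genes. Its genes vary independently, which real ones need not. Alternatives used DESeq2 1.42.0, limma 3.58.1 and an exact rank sum test over all 184756 splits (scipy 1.17.1).

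The members and gene lists were chosen with earlier results of these data known. Named genes were the called genes, tested AhR genes, the 8 largest differences in each direction with a mean of at least 2 FPKM, and the 3 smallest p-values of each of 48 lists. Ciart, Fads3, Per1, Per2, Per3, Nr1d1, Nr1d2, Clock, Cry1, S100a8 and S100a9 were added after their values were seen. Of the 162 genes this rule names, 91 are given here with values, and the rest are not reported here.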

Additional observations from a re-analysis of the deposited data

Results flagged for a closer look

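Each value here lay far from the rest of its group of 10 mice, by a gap beyond Dixon's 95% critical value as a share of the group's range. Of 204 groups checked, 49 met this. A chance rate of about 1 in 20 holds for normally distributed values. The check used FPKM without a log, and most flags are high values, so the count cannot be set against that rate. Many of these genes vary together, so the flags are not independent.

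Mouse 5 at 10 mpk was highest for Arntl (2.19 FPKM), Nfil3 (16.1), Il6 (1.82), Cxcl5 (57.0), Lcn2 (34.9), Saa3 (97.4), Cldn2 (68.7), Olfm4 (3.14), Timp1 (103), Asns (33.2), Rrm2 (29.9) and S100a8 (230 FPKM), and lowest for Dbp (5.3 FPKM). Mouse 9 at 10 mpk was highest for Hsp90ab1 (932 FPKM), Ptges3 (105 FPKM) and Mptx1 (8524 FPKM) and lowest for Xbp1 (49.95 FPKM) and Fads3 (3.26 FPKM). Mouse 8 at 10 mpk was highest for Trem1 (3.6 FPKM), Cxcl1 (15.5 FPKM) and Ptgs2 (25.2 FPKM), and mouse 6 for Retnla (229 FPKM) and Cma2 (15.2 FPKM). Mouse 7 at 10 mpk was highest for Pnliprp1 (20.4 FPKM), Reg1 (32.9 FPKM), Ctrb1 (288.96 FPKM), Cpb1 (20.8 FPKM) and Ctrl (34.4 FPKM).

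Vehicle mouse 5 was highest for Tiparp (15.7 FPKM), Mmp9 (42.2), Msr1 (14.9), Il33 (56.9) and Olfm4 (18.1 FPKM). Vehicle mouse 9 was highest for Il6 (33.7 FPKM), Spp1 (189), Timp1 (513), S100a8 (2388) and S100a9 (3904 FPKM). Vehicle mouse 2 was highest for Fosb (10.4 FPKM) and Cldn2 (80.5 FPKM), mouse 1 for Sox10 (1.44 FPKM), mouse 7 for Cma2 (4.08 FPKM), and mouse 6 for Reg2 (5940 FPKM), Pnliprp1 (2530), Reg1 (3632), Ctrb1 (27343), Gp2 (1179), Cpb1 (873) and Ctrl (1186 FPKM).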

How the results depend on the processing

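Against 12 called genes, 0.0714% of those tested, the fit on 40 TNBS mice called 1042 genes (5.91%), on all 50 mice 1749 (9.76%), DESeq2 329 (1.96%) and limma voom with library weights 2.12% of genes, 224 higher and 133 lower. On log2 FPKM, limma called 3 genes (0.0178%), 24 (0.143%) and 28 (0.167%) with pseudocounts of 0.1, 0.5 and 1. Upper quartile scaling gave 20 (0.119%), quantile normalization 25 (0.149%), RLE size factors 16 and no filter on low counts 12. The rank sum test, whose floor no gene can pass on its own, gave 0. Leaving out the mouse low in Xist gave 4 (0.0237%). Chosen after the data were seen, leaving out the 10 mpk mice 3 and 8 gave 7 (0.0412%), and the 40 mice with a weight per group 22 (0.125%). Leaving out 1 mouse gave 2 to 402 called genes, 0.0118% to 2.38% of those tested, the highest without 10 mpk mouse 5. The cause of these differences was not tested.

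The labels number the mice 1 to 10 in both groups, and a replicate block gave 5 called genes (0.0297%). Deviations of same-numbered libraries gave a mixed picture: 6 of 10 pairs had a correlation above 0.1, from -0.301 to 0.367 over the pairs. Of the 10 libraries at 10 mpk, 2 correlated best with their own number. Whether the numbers mark pairs was not tested.

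Of the 102 genes checked under 36 alternatives, 11 changed sign under at least 1, namely 6 of the AhR list near 0 and 5 pancreatic genes. Ahr (-0.02) was at 0.05 with voom and 0.01 with upper quartile scaling, and ran from -0.06 to 0.01 with 1 mouse left out. Nqo1 (-0.02) was at 0.00 with voom, a pseudocount of 1, the replicate block or the rank sum test, 0.01 with pseudocounts of 0.1 or 0.5 or upper quartile scaling, and 0.02 with quantile normalization or without the mouse low in Xist, and ran from -0.11 to 0.09 with 1 mouse left out. Ahrr (-0.01) was at 0.01 with voom, 0.03 with a pseudocount of 0.1, 0.02 with upper quartile scaling or quantile normalization, 0.00 with no filter, 0.05 with the replicate block or the rank sum test and 0.04 with a weight per group, and ran from -0.12 to 0.13. Arnt2 (0.09) was at -0.02 with quantile normalization and -0.14 without the 10 mpk mice 3 and 8, and ran from -0.05 to 0.18. Ptges3 (0.03) ran from -0.06 to 0.12 and Ugt1a6a (-0.11) from -0.35 to 0.03. With voom Pnliprp1 was at 0.52, Reg1 0.56, Ctrb1 0.05, Cpb1 0.11 and Ctrl 0.06. The cause was not tested. Over all genes checked 281 values passed the threshold that had not with all 20 mice, while 205 no longer did. At this spread, 53.1% of simulated 1.5-fold changes were missed, and intervals cover the spread between these libraries only.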

Other observations

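Genes of cell division were lower at 10 mpk as a list. All 18 tested proliferation genes were lower, with a median log2 fold change of -0.37, 1 at an unadjusted p under 0.05, a share below the 7.6% of all genes, and none called. That gene was Rrm2, a subunit of ribonucleotide reductase, which had medians of 7.19 FPKM at 10 mpk and 12.1 FPKM in vehicle mice (-0.76, SE 0.36, adjusted p = 0.323). Its highest 10 mpk value was that of mouse 5. Without that mouse 14 of the 18 had such a p and the median was -0.58. In that fit, which called 194 of 16909 genes lower, 2 of the 18 were called lower. Of the other fits that left out 1 mouse, 11 had none at such a p. Olfm4, a crypt gene, had medians of 0.08 and 1.0 FPKM (-2.84, SE 1.0, adjusted p = 0.205), the lowest fold change of its list. Of the 11 crypt stem and Wnt target genes tested, 8 were higher and 3 lower, with a median of 0.07.

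Of 9 genes of the unfolded protein response, 6 were lower and 3 higher, with a median of -0.12 (-0.20 to -0.05 with 1 mouse left out). Asns, asparagine synthetase, had medians of 13.4 and 22.2 FPKM (-0.63, SE 0.23, adjusted p = 0.225), and Xbp1, a secretory cell factor, 67.2 and 76.3 FPKM (-0.23, SE 0.09, adjusted p = 0.238). In prostaglandin metabolism the inducible cyclooxygenase Ptgs2 had medians of 3.38 and 9.36 FPKM (-1.53, SE 0.64, adjusted p = 0.271), and Hpgd, which breaks prostaglandins down, 156 and 125 FPKM (0.37, SE 0.14, adjusted p = 0.231), with 8 of 10 mice above the vehicle range. All 11 tested mast cell and eosinophil genes were higher, with a median of 0.53 and 1 at an unadjusted p under 0.05, a share close to the 7.56% of all genes. Their summed level was highest in 10 mpk mouse 6, the mouse low in Xist, at 1575 CPM against a group median of 250.1 CPM, and without it 6 were higher and 5 lower, with a median of 0.06. Without vehicle mouse 7, the highest of its group, the median was 1.13. Cma2, a mast cell chymase, had medians of 1.02 FPKM at 10 mpk and 0.315 FPKM in vehicle mice (1.85, SE 0.85, adjusted p = 0.306), and was at 0.98 (adjusted p = 0.639) without mouse 6. Of 13 interferon response genes 11 were higher, with a median of 0.35 and none at such a p, and 6 at such a p without vehicle mouse 4, with a median of 0.64.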
